A study of Bos taurus with 6 samples.

Results

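Histones package DNA into nucleosomes, and the histone genes of cattle testis were compared between immature calves and mature bulls. The histone genes were taken as every row of the deposited gene table whose symbol follows the naming of histone genes (HIST, H1F, H2A, H2B, H3F and H4 symbols, with HILS1 and CENPA), which gave 44 of 47249 rows. These 44 rows carry 30 symbols, because 20 of them share a symbol with another row, and each row was kept apart by its Ensembl identifier. The libraries were made from untreated testes of Wandong cattle, a local Chinese breed, of 3 calves aged 3 months and 3 bulls aged 3 years, with 1 library per animal. Total RNA was depleted of ribosomal RNA before library construction, so that RNA without a poly(A) tail was retained. No genotype or other treatment separated the animals, and age was the compared condition.

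Histones of the core families H2A, H2B, H3 and H4 form the nucleosome, while linker H1 histones bind the DNA between nucleosomes. The replication-dependent histone genes lie in clusters, are transcribed in S phase and give mRNAs that end in a stem-loop and lack a poly(A) tail. Many variant histones, though not all, are made throughout the cell cycle from genes outside these controls, and several variants are made mainly in male or female germ cells. In spermatids most histones are replaced by transition proteins and then by protamines.

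The library of calf 3 stood apart from the other calves before any histone was considered. All 15 brain cell markers were higher in calf 3 than in both other calves, and their summed level was 16417 FPKM (fragments per kilobase, corrected for library size) against 170 and 186 FPKM in calves 1 and 2 and 88.0 to 93.6 FPKM in bulls. Of 10 Sertoli cell markers, 9 were lower in calf 3, with GATA4, FSHR and WT1 listed at 0, and the summed level was 868 FPKM against 2839 and 2731 FPKM in the other calves and 445 to 474 FPKM in bulls. All 9 rows of the 7 Leydig cell markers were lower in calf 3, with NR5A1, CYP11A1 and the 3 rows of CYP17A1 listed at 0, and the summed level was 0.501 FPKM against 1431 and 1169 FPKM in the other calves and 1473 to 2747 FPKM in bulls. Markers of Sertoli and Leydig cells were thus mostly lower in that library than in the other calves, despite its tissue label. Markers of other testis cells were mixed. All 5 endothelial markers were higher in calf 3, while 4 of 5 peritubular myoid and 4 of 5 macrophage markers were lower. Spermatogonia markers summed to 284 FPKM against 84.3 and 99.5 FPKM in calves 1 and 2 and 214 to 222 FPKM in bulls. Of these rows, 4 were higher and 5 lower in calf 3. The calls were made with all 6 libraries and again without calf 3. Calls without calf 3 thus rest on calves 1 and 2 alone against 3 bulls.

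Of the 44 histone rows, 43 passed the filter of at least 1 FPKM in at least 3 libraries, 3 of them through the bull libraries alone and 1 through the calf libraries alone. A gene was called different when limma gave a Benjamini-Hochberg adjusted p below 0.05 and a difference of at least 1 on the log2(FPKM + 1) scale. With all libraries, 6 histone genes were higher in bulls, 5 were lower and 32 were not called. Over all 18115 genes tested, 35.7% were called higher, 9.61% lower and 45.3% in either direction, so that the histone genes were called higher in a smaller share than the background. Without calf 3, 7 histone genes were higher and 13 lower in bulls, against 37.9% higher, 13.6% lower and 51.5% in either direction over all genes. The 2 fits shared 10 calls of the same direction, while 8 genes were called lower and HIST1H1T and HIST3H3 were called higher without calf 3 alone, and H2AFJ was called higher with all libraries alone. With all libraries, 12 histone genes had every bull above every calf and 6 had every bull below, against 46.1% and 21.3% (67.4% together) of all genes tested. Without calf 3 these numbers were 12 and 20, against 53.5% and 30.9% (84.4% together) of all genes.

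The median difference of the histone genes was 0.39 on the log2(FPKM + 1) scale with all libraries and -0.42 without calf 3, while the median over all genes tested was 0.43 in both fits. The change followed the level of calf 3, in which 33 of the 44 rows had their lowest value and 40 rows were lower than in calves 1 and 2. Summed over the 44 rows, the level was 6295, 5292 and 1105 FPKM in calves 1, 2 and 3 and 5504, 6187 and 5809 FPKM in bulls 1, 2 and 3. In summed level all bulls lay within the range of calves 1 and 2, while the classes that made up the sum differed between them. As a share of the summed FPKM of rows with a symbol, the level was 0.610%, 0.501% and 0.199% in calves 1, 2 and 3. In bulls 1, 2 and 3 that share was 0.774%, 0.882% and 0.880%, so that every bull was above every calf. In bulk tissue, fewer cells of a type and less RNA per cell cannot be told apart.

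**Figure D1:**
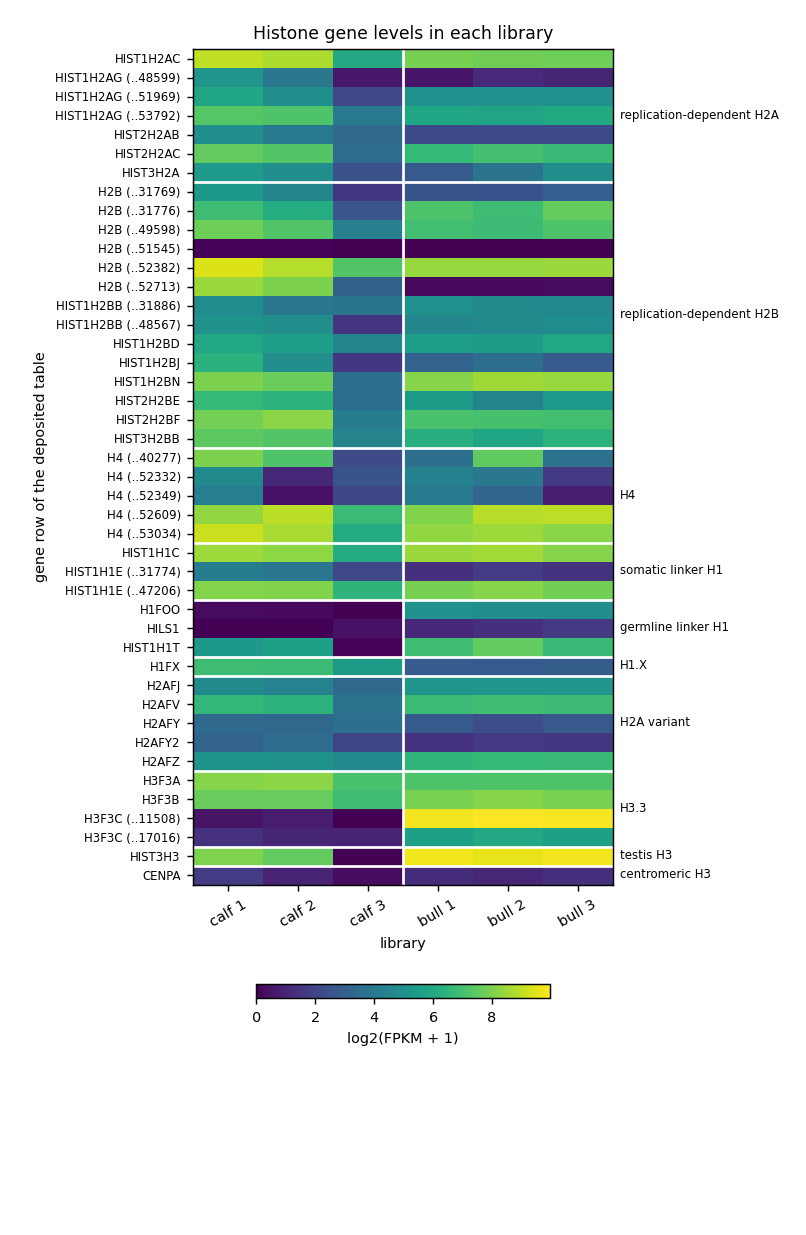
Level of each of the 44 histone rows in each library as log2(FPKM + 1), grouped by role, with the last digits of the identifier where a symbol is shared. Most rows were lowest in calf 3 (33 of 44), and the H3F3C rows and H1FOO were near 0 in calves and high in bulls.

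Among the 43 tested rows, the largest rise was that of an H3 variant. H3.3, the replication-independent form of H3, is encoded by H3F3A and H3F3B, and H3F3C is the symbol of further copies of the family. The H3F3C row ENSBTAG00000011508 at chr16:30668107-30671708, which lies at the position of the RefSeq gene H3-3D, was measured at 0.451, 0.714 and 0 FPKM in calves 1, 2 and 3 and at 886, 990 and 929 FPKM in bulls 1, 2 and 3. It was near 0 in every calf and the most abundant histone row in every bull, with a difference of 9.43 ± 0.23 (SE) on the log2(FPKM + 1) scale by limma (adjusted p = 3.29e-06). This row passed the filter only through the bulls, in which it is high, so that it had to differ to be tested, and its adjusted p was 7.34e-06 without a filter. The other H3F3C row, ENSBTAG00000017016 at chr14:19419742-19420794 (RefSeq H3-5), was measured at 1.64, 1.04 and 1.0 FPKM in calves and at 49.4, 62.5 and 50.0 FPKM in bulls. It also separated the groups without overlap and differed by 4.63 ± 0.19 (SE) on the log2(FPKM + 1) scale (limma adjusted p = 1.34e-05). Without calf 3 the differences of these rows were 9.21 and 4.56.

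The ubiquitous H3.3 genes moved far less. H3F3A was measured at 284, 296 and 135 FPKM in calves and at 149, 147 and 146 FPKM in bulls, so that bulls lay below calves 1 and 2 and slightly above calf 3. Its difference was not called with all libraries (-0.60 on the log2(FPKM + 1) scale, limma adjusted p = 0.183) or without calf 3 (-0.97, adjusted p = 0.000146, short of the difference of 1). H3F3B was measured at 196, 199 and 117 FPKM in calves and at 247, 282 and 249 FPKM in bulls, all bulls being above all calves, and its differences of 0.64 with all libraries (limma adjusted p = 0.0916) and 0.39 without calf 3 were not called. As a share of the summed FPKM of these 4 rows, H3F3C made up 0.434%, 0.354% and 0.395% in calves 1, 2 and 3 and 70.9% ± 0.538 (SD, n = 3) in bulls. The share of H3F3A was 59.2% in the mean of calves 1 and 2 and 10.6% in bulls, and that of H3F3B was 40.4% and 18.6%. The shares of calf 3 lay close to those of the other calves, with 53.2% for H3F3A and 46.4% for H3F3B.

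HIST3H3 encodes H3t, a testis-specific H3, and lies at chr7:2590769-2591179 (RefSeq H3-4). It was measured at 263, 188 and 0 FPKM in calves 1, 2 and 3 and at 850, 796 and 868 FPKM in bulls 1, 2 and 3. All bulls were above all calves, but calf 3 was listed at 0 while the other calves were well above 0, and the difference of 4.51 ± 2.14 (SE) on the log2(FPKM + 1) scale was not called (limma adjusted p = 0.122). Without calf 3, HIST3H3 rose by 1.91 (adjusted p = 0.000109), a level in bulls 3.71 times the mean of calves 1 and 2. In contrast to the H3F3C rows, HIST3H3 was thus already abundant in calves 1 and 2. CENPA, the H3 variant of centromeres, was measured at 2.29, 0.942 and 0.264 FPKM in calves and at 1.47, 1.08 and 1.59 FPKM in bulls. The groups overlapped and the differences of 0.24 with all libraries (limma adjusted p = 0.593) and -0.094 without calf 3 were not called. No row carried the symbol of a replication-dependent H3 gene, so that this class was not analysed here.

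Of the 3 linker histone rows of germ cells, H1FOO and HILS1 were called higher in bulls with all libraries and HIST1H1T without calf 3 alone. H1FOO encodes a linker histone known from oocytes and lies at chr22:56187649-56218695. It was measured at 0.210, 0.207 and 0.0359 FPKM in calves 1, 2 and 3 and at 31.6, 29.1 and 28.7 FPKM in bulls 1, 2 and 3. The groups were far apart and H1FOO rose by 4.75 ± 0.16 (SE) on the log2(FPKM + 1) scale (limma adjusted p = 7.44e-06), and by 4.67 without calf 3. H1FOO also passed the filter only through the bulls, and its adjusted p was 1.31e-05 without a filter. Most of this level was in an assembled transcript at chr22:56187649-56191499, with 22.9, 20.6 and 20.8 FPKM in bulls, while the annotated transcript H1FOO-202 had 8.64, 8.52 and 7.97 FPKM and H1FOO-201 had at most 0.0111 FPKM in bulls. The level of H1FOO in bulls was thus mainly that of a model much shorter than the gene row. That model lies largely within the span of H1FOO-201, at chr22:56187762-56193495, and its coding content was not analysed here.

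HIST1H1T encodes the testis-specific H1t of spermatocytes and lies at chr23:31844641-31849982. It was measured at 39.0, 48.1 and 0.0751 FPKM in calves and at 115, 189 and 104 FPKM in bulls. All bulls exceeded all calves, and calf 3 was again far below the other calves. The difference of 3.37 on the log2(FPKM + 1) scale was not called with all libraries (limma adjusted p = 0.102), and without calf 3 HIST1H1T rose by 1.58 ± 0.27 (SE, adjusted p = 0.00202). The row spans an H4 row, ENSBTAG00000052609, which was measured at 323, 481 and 110 FPKM in calves and 264, 476 and 491 FPKM in bulls. In calf 3 the H4 row was thus still measured at 110 FPKM where HIST1H1T was near 0.

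HILS1, named for a linker-like histone of spermatids, was measured at 0.0179, 0.0360 and 0.399 FPKM in calves and at 1.14, 1.55 and 2.16 FPKM in bulls. It rose by 1.18 ± 0.20 (SE) on the log2(FPKM + 1) scale (limma adjusted p = 0.00325) and by 1.33 without calf 3, and all bulls were above all calves. HILS1 was likewise tested only because the bulls passed the filter (adjusted p = 0.0119 without a filter), and its difference was 0.020 and was not called under quantile normalization. The annotated transcript HILS1-201 was however at most 0.0528 FPKM in every library, and the level lay in an assembled transcript at chr19:36482883-36496971 with 1.10, 1.52 and 2.10 FPKM in bulls. That model overlaps SGCA, a muscle sarcoglycan gene, which was measured at 1.14, 2.69 and 3.52 FPKM in calves and at 49.2, 60.4 and 15.2 FPKM in bulls. The level of the HILS1 row in bulls thus lay almost wholly outside the annotated HILS1 transcript.

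The markers of spermatids moved with these genes. The summed level of 7 round spermatid markers was 5.66, 6.23 and 0.590 FPKM in calves and 388 to 418 FPKM in bulls, and that of 8 elongating spermatid markers was 4.13, 3.84 and 1.89 FPKM in calves and 14144 to 15980 FPKM in bulls. The 10 spermatocyte markers summed to 38.7, 51.4 and 3.79 FPKM in calves and to 344 to 415 FPKM in bulls, and all 10 were lower in calf 3 than in the other calves. Their part in the rise of H3F3C, HIST3H3, H1FOO and HIST1H1T was not tested.

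**Figure D2:**
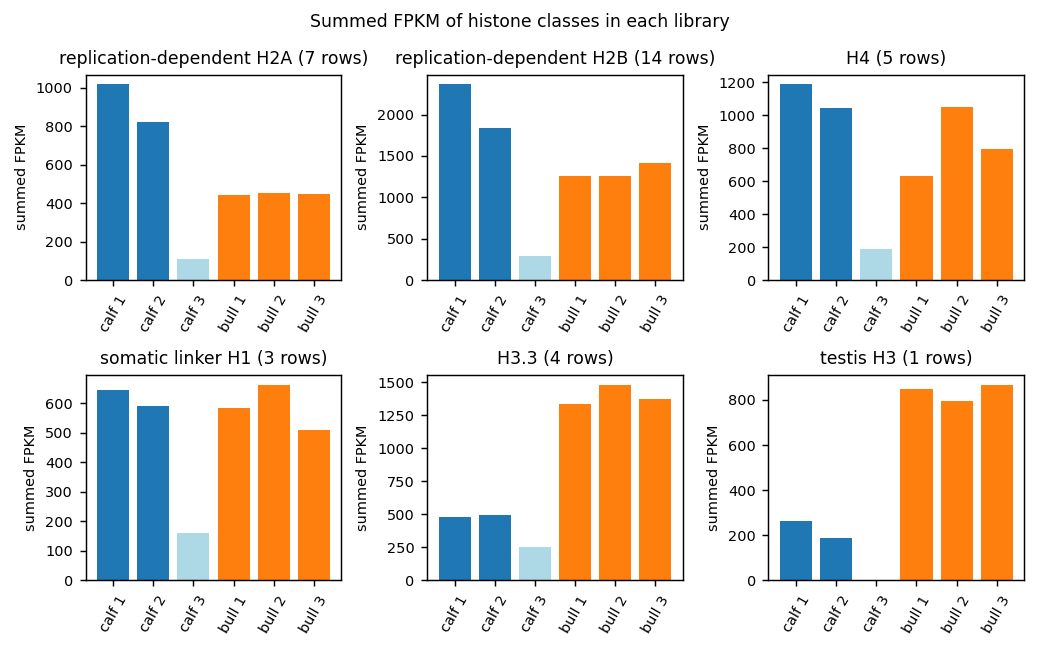
Summed FPKM of 6 histone classes in each library, as bars from 0 with calves in blue (calf 3 light) and bulls in orange. Replication-dependent H2A and H2B were highest in calves 1 and 2, and H3.3 and the testis H3 were highest in bulls.

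In summed level, the rows with a symbol of replication-dependent H2A or H2B lay below calves 1 and 2 in every bull. Rows without a histone symbol were left out of these sums. The histone region of chromosome 23 holds 30 rows with an Ensembl identifier only, whose content was not analysed here. The 7 H2A rows summed to 1018, 820 and 108 FPKM in calves 1, 2 and 3 and to 442, 452 and 450 FPKM in bulls 1, 2 and 3. The 14 H2B rows summed to 2366, 1834 and 286 FPKM in calves and to 1259, 1258 and 1410 FPKM in bulls. In both classes the bulls lay between calf 3 and the other calves, and the summed level of both classes in bulls was 0.582 times that of calves 1 and 2. These sums were not scaled between libraries. The summed FPKM of all rows was 1066200, 1098700 and 587070 in calves and 776840, 770190 and 732130 in bulls. This total was lower in every bull than in calves 1 and 2, so that the order of the class sums can depend on the scaling. Median FPKM of genes at 1 FPKM or more in every library was 8.91 to 9.56 in calves and 10.4 to 10.8 in bulls. The H2B sum includes the row ENSBTAG00000052713, given below, whose fall cannot be told apart from a shift between models. As a share of the FPKM of all 44 rows, H2A and H2B made up 52.0% in the mean of calves 1 and 2, 35.7% in calf 3 and 30.2% ± 2.28 (SD, n = 3) in bulls, as a description without a test.

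Of these 21 rows, 20 were tested, and 2 were called lower in bulls with all libraries and 10 without calf 3, against 9.61% and 13.6% called lower over all genes, while none was called higher in either fit. Without calf 3 the difference was negative in 17 rows, its range was -7.98 to 0.71 and its median was -1.02 on the log2(FPKM + 1) scale, against -0.08 with all libraries. All bulls were below calves 1 and 2 in 14 rows and above both in 2 rows, the H2B row ENSBTAG00000031776 and HIST1H2BN, against 30.9% and 53.5% of all genes. The level in calf 3 was 2.17% to 64.4% of the mean of calves 1 and 2, with a median of 9.31%. S phase genes differed in calf 3 as well, with 17 of 20 below both other calves and summed levels of 256, 247 and 79.8 FPKM in calves and 338 to 377 FPKM in bulls. Their part in the low histone level of calf 3 was not tested.

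The rows that were called in both fits were led by one H2B gene. The H2B row ENSBTAG00000052713 at chr23:31002490-31002870 (RefSeq H2BC13) was measured at 355, 256 and 7.40 FPKM in calves 1, 2 and 3 and at 0.182, 0.177 and 0.226 FPKM in bulls 1, 2 and 3. All calves were above all bulls, and the row fell by 6.26 on the log2(FPKM + 1) scale with all libraries (SE 1.42, limma adjusted p = 0.0109) and fell by 7.98 without calf 3. It passed the filter only through the calves, in which it is high, and its adjusted p was 0.0200 without a filter. Assembled models at the same position moved the other way, with 20.4, 10.6 and 0.00180 FPKM in calves and 147, 99.2 and 98.4 FPKM in bulls for a model at chr23:30995860-31002870. A second assembled model at chr23:30965730-31002937 had 20.5, 14.7 and 0.344 FPKM in calves and 51.8, 58.9 and 68.4 FPKM in bulls. Reads of this H2B gene could have been placed on either kind of model, so that the fall of the annotated row cannot be told apart from a shift between models.

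HIST2H2AB, an H2A gene of the smaller cluster on chromosome 3, was measured at 30.4, 16.6 and 9.78 FPKM in calves and at 3.77, 3.65 and 3.65 FPKM in bulls. Every calf was above every bull, and HIST2H2AB fell by 1.95 with all libraries (SE 0.39, limma adjusted p = 0.00657) and by 2.32 without calf 3. It overlaps an unnamed row, ENSBTAG00000040098, with 162, 164 and 43.3 FPKM in calves and 86.6, 93.3 and 78.2 FPKM in bulls.

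The other calls of these classes rested on leaving out calf 3. The HIST1H2AG row ENSBTAG00000048599 was measured at 35.4, 14.3 and 0.540 FPKM in calves and at 0.505, 1.33 and 1.04 FPKM in bulls, so that calf 3 lay at the level of the bulls, and it fell by 3.62 without calf 3 (limma adjusted p = 0.000287). HIST1H2BJ, which lies inside that row, was measured at 80.9, 29.6 and 2.09 FPKM in calves and at 7.72, 11.2 and 6.27 FPKM in bulls, and fell by 2.45 without calf 3 (limma adjusted p = 0.00255). Both rows varied by more than 2 times between calves 1 and 2. The H2B row ENSBTAG00000031769 was measured at 38.4, 22.9 and 1.97 FPKM in calves and at 5.03, 4.74 and 6.90 FPKM in bulls, and fell by 2.24 without calf 3. The remaining 5 of these 8 calls, HIST1H2AC, the HIST1H2AG row ENSBTAG00000053792, HIST2H2BE, HIST2H2BF and HIST3H2BB, had differences of -1.45 to -1.0 on the log2(FPKM + 1) scale without calf 3. With all libraries their differences were -0.47 to 0.29, since calf 3 lay below every bull in each of these 5 rows.

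Apart from the H2B row ENSBTAG00000052713, the abundant replication-dependent genes named here were not called with all libraries. The H2B row ENSBTAG00000052382 at chr23:31829268-31829648 (RefSeq H2BC4) had the highest mean level in calves 1 and 2, with 682, 462 and 151 FPKM in calves and 342, 338 and 355 FPKM in bulls. Bulls agreed closely with each other and lay below calves 1 and 2, and the difference without calf 3 was -0.70, short of 1 (limma adjusted p = 0.0114). HIST1H2AC was measured at 505, 426 and 63.5 FPKM in calves and at 242, 219 and 212 FPKM in bulls, and bulls lay at 0.482 times the mean of calves 1 and 2. HIST1H2BN was the exception among the abundant genes, with 256, 212 and 11.1 FPKM in calves and 285, 373 and 338 FPKM in bulls. Bulls were above all calves in HIST1H2BN, yet its difference was 1.93 with all libraries (limma adjusted p = 0.214) and 0.50 without calf 3, and neither was called.

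The H4 rows gave no call in either fit. ENSBTAG00000053034 at chr23:31908290-31908601 (RefSeq H4C1) was measured at 569, 414 and 68.6 FPKM in calves and at 321, 364 and 287 FPKM in bulls, and ENSBTAG00000052609 (RefSeq H4C3), given above with HIST1H1T, had similar levels in bulls and in calves 1 and 2. A further row, ENSBTAG00000040277 at chr23:31770873-31796811, varied within groups, with 252, 149 and 3.90 FPKM in calves and 11.8, 185 and 12.6 FPKM in bulls. Its annotated transcript had 238, 135 and 0.757 FPKM in calves and 0.0846, 173 and 0.376 FPKM in bulls, while an overlapping assembled row had 3.70, 179 and 84.1 FPKM in calves and 162, 2.28 and 150 FPKM in bulls. The annotated H4 transcript was thus high and the assembled row low in calf 1 and bull 2, the order was the opposite in calf 3, bull 1 and bull 3, and both were high in calf 2. Likewise, the H4 row ENSBTAG00000052332 on chromosome 1 had 25.4, 1.17 and 5.06 FPKM in calves and 19.6, 14.4 and 2.20 FPKM in bulls, and its neighbour ENSBTAG00000052349 had 18.7, 0.397 and 3.28 FPKM in calves and 16.8, 8.48 and 0.801 FPKM in bulls. Neither row separated calves from bulls.

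**Figure D3:**
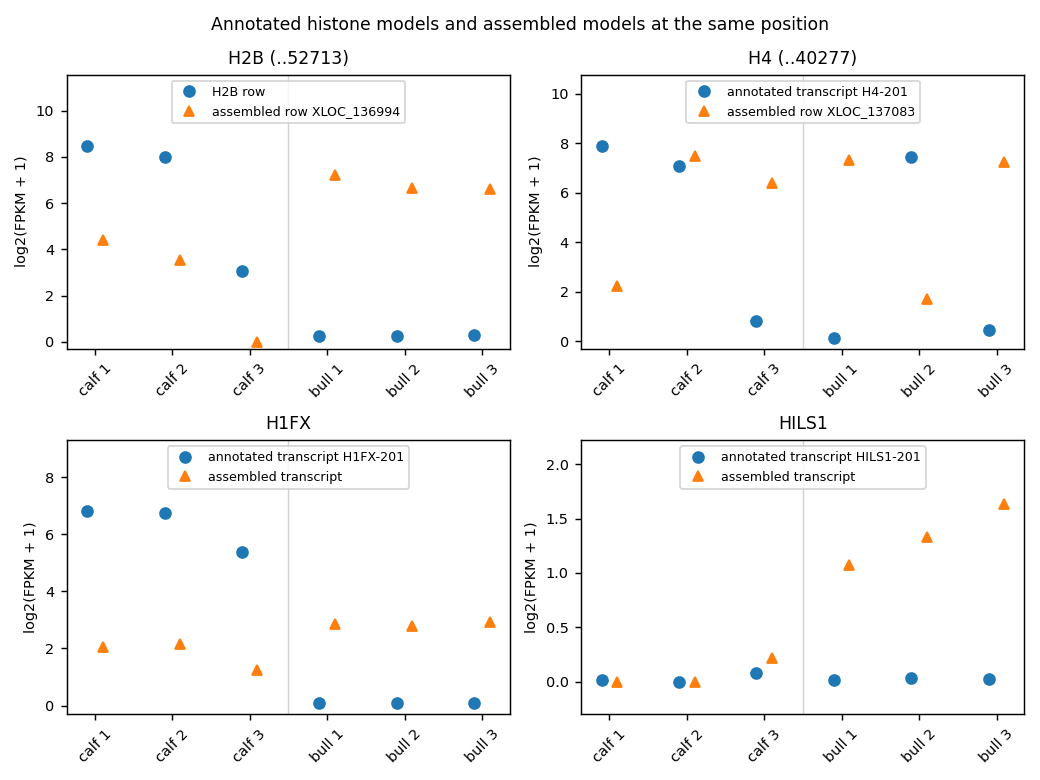
Level as log2(FPKM + 1) in each library of annotated histone models (circles) and of assembled models at the same position (triangles) for an H2B row, an H4 row, H1FX and HILS1. In the H2B row and H1FX the annotated model was higher in calves while the assembled model was higher in bulls, and the HILS1 level in bulls lay in the assembled model.

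Linker histones of somatic cells were called lower for H1FX and one HIST1H1E row. H1FX encodes H1.X, a divergent linker histone, and lies at chr22:59129272-59182014. It was measured at 115, 110 and 42.2 FPKM in calves 1, 2 and 3 and at 6.32, 6.0 and 6.61 FPKM in bulls 1, 2 and 3. Every calf, calf 3 included, was above every bull, and H1FX fell by 3.49 ± 0.40 (SE) on the log2(FPKM + 1) scale (limma adjusted p = 0.000617) and by 3.95 without calf 3. The bull level came from an assembled transcript that spans several genes, with 6.27, 5.95 and 6.54 FPKM in bulls and 3.16, 3.44 and 1.39 FPKM in calves. The annotated transcript H1FX-201 at chr22:59173586-59174230 had 112, 106 and 40.9 FPKM in calves and 0.0523, 0.0507 and 0.0708 FPKM in bulls, and fell by 6.24 on the log2(FPKM + 1) scale (limma adjusted p = 7.59e-05), while without calf 3 the difference was -6.70. It lies within RAB7A, whose levels were 28.3 to 41.3 FPKM in calves and 21.9 to 23.6 FPKM in bulls. The assembled transcript over several genes rose by 1.04 with all libraries (limma adjusted p = 0.0240). Its difference without calf 3 was 0.75 and was not called. Whether reads of H1FX shifted between these models was not tested.

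The HIST1H1E row ENSBTAG00000031774 at chr23:31770009-31771607 (RefSeq H1-12) was measured at 17.1, 13.9 and 3.51 FPKM in calves and at 1.63, 2.30 and 1.73 FPKM in bulls. All calves were above all bulls, and this row fell by 1.89 ± 0.54 (SE) with all libraries (limma adjusted p = 0.0261) and by 2.52 without calf 3. Its call was lost when calf 1, calf 2 or any bull was left out (adjusted p = 0.0681 to 0.0879). The other HIST1H1E row, ENSBTAG00000047206 (RefSeq H1-4), was measured at 271, 270 and 88.9 FPKM in calves and at 237, 279 and 224 FPKM in bulls, and HIST1H1C was measured at 358, 306 and 69.0 FPKM in calves and at 346, 382 and 285 FPKM in bulls. The bulls overlapped calves 1 and 2 in both of these abundant H1 genes, whose differences without calf 3 were -0.14 and 0.02 and were not called. Of the summed FPKM of the 7 linker rows, H1FX made up 14.5% in the mean of calves 1 and 2, 20.7% in calf 3 and 0.848% ± 0.169 (SD, n = 3) in bulls. In the same order, HIST1H1T made up 5.65%, 0.0368% and 17.6% ± 3.16, and H1FOO 0.0269%, 0.0176% and 3.99% ± 0.618.

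Variants of H2A with a row of their own differed from each other in direction. H2AFZ and H2AFV encode the forms of H2A.Z, a variant found near transcription start sites. H2AFZ at chr6:24736918-24739414 was measured at 34.4, 32.3 and 24.3 FPKM in calves and at 92.9, 101 and 104 FPKM in bulls. All bulls were well above all calves, and H2AFZ rose by 1.69 ± 0.18 (SE) on the log2(FPKM + 1) scale (limma adjusted p = 0.000468) and by 1.55 without calf 3. Under quantile normalization H2AFZ differed by 0.91 and was not called. H2AFV was measured at 96.6, 85.7 and 13.2 FPKM in calves and at 110, 118 and 112 FPKM in bulls, and its differences of 1.22 with all libraries (limma adjusted p = 0.214) and 0.32 without calf 3 were not called. H2AFZ thus made up 26.2% and 27.4% of the summed FPKM of H2AFZ and H2AFV in calves 1 and 2, 64.8% in calf 3 and 46.6% ± 1.33 (SD, n = 3) in bulls.

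H2AFJ encodes H2A.J, a variant close to canonical H2A. It was measured at 25.5, 20.3 and 9.89 FPKM in calves and at 35.9, 35.8 and 35.7 FPKM in bulls. All bulls were above all calves, and the difference of 1.01 on the log2(FPKM + 1) scale was called with all libraries (limma adjusted p = 0.0462), while it was 0.63 and was not called without calf 3. The call was also lost without calf 2 or any single bull, with another filter, under quantile or median scaling and with a replicate block, and H2AFJ is a call at the threshold. H2AFY and H2AFY2 encode the macroH2A proteins, which carry a large non-histone domain. H2AFY was measured at 9.48, 9.35 and 11.5 FPKM in calves and at 6.06, 4.10 and 5.78 FPKM in bulls, and H2AFY2 at 7.91, 10.2 and 3.23 FPKM in calves and 1.74, 2.27 and 2.06 FPKM in bulls. Every calf was above every bull in both genes. H2AFY2 fell by 1.32 ± 0.38 (SE) on the log2(FPKM + 1) scale (limma adjusted p = 0.0279) and by 1.73 without calf 3, whereas H2AFY differed by -0.82 (adjusted p = 0.0141) and by -0.74 without calf 3 and was not called, short of 1. The call of H2AFY2 was lost when calf 1, calf 2 or any bull was left out (adjusted p = 0.0701 to 0.0949). H2AFY was also 1 of 2 rows, with HILS1, that were higher in calf 3 than in both other calves.

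**Figure D4:**
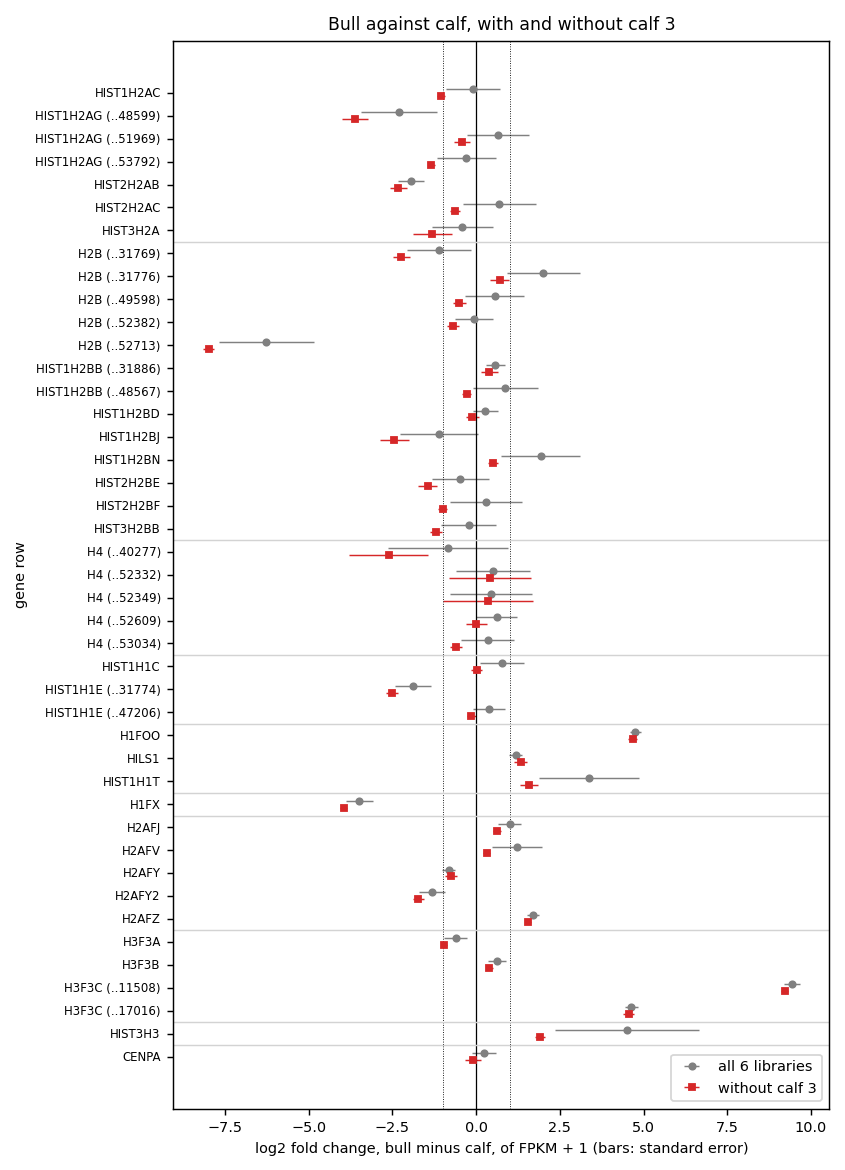
Difference between bulls and calves of each tested histone row on the log2(FPKM + 1) scale, with bars of the standard error, for all 6 libraries (grey circles) and without calf 3 (red squares), and dotted lines at -1 and 1. Leaving out calf 3 moved most replication-dependent rows to the left, and the H3F3C rows, H1FOO, H2AFZ and H1FX kept their calls.

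Transcripts gave a similar account in part, but some assembled transcripts were called higher in rows that were not. One was a HIST1H2BD transcript that rose by 2.33 (limma adjusted p = 0.0141) and by 2.34 without calf 3. A further assembled HIST1H2BD transcript at the same position was lower in bulls but was not tested, and the HIST1H2BD row was not called in either fit. The 44 rows hold 69 transcripts, of which 55 were tested, and 11 were called higher and 5 lower in bulls with all libraries, against 34.8% higher and 9.37% lower over all transcripts tested. Without calf 3, 10 were higher and 14 lower, against 36.1% and 13.1%. Within H3F3A, the annotated transcript H3F3A-201 had 232, 287 and 135 FPKM in calves and 124, 128 and 128 FPKM in bulls, and differed by -0.71 with all libraries (limma adjusted p = 0.106, not called) and fell by 1.02 without calf 3 (adjusted p = 0.000937). An assembled H3F3A transcript with 3.57, 5.02 and 0 FPKM in calves and 13.5, 16.8 and 16.3 FPKM in bulls rose by 2.45 with all libraries (limma adjusted p = 0.0249) and by 1.65 without calf 3, and all bulls were above all calves. In the HIST2H2BE row, the assembled model at chr3:20724732-20759725 had 54.7, 44.8 and 0 FPKM in calves and 0, 0 and 2.24 FPKM in bulls, while one at chr3:20746693-20759725 had 6.01, 0.143 and 0.558 FPKM in calves and 25.9, 5.96 and 24 FPKM in bulls. Levels of long models over several histone genes thus changed between models as well as between groups.

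The position of the rows bears on how far their values can be read one by one. On chromosome 23, 22 of the 44 rows were placed, 21 of them in a cluster region that holds 84 rows, of which 30 carry an Ensembl identifier only and 20 were assembled from reads. Chromosomes 3 and 7 held 4 rows each. Of the 44 rows, 28 overlap at least 1 other row and 11 overlap an assembled row. By position, 34 rows lie on exactly 1 RefSeq histone gene, 6 on more than 1 and 4 on none. The HIST1H2AG row ENSBTAG00000051969 spans 12 RefSeq histone genes of all families, and was measured at 57.6, 30.5 and 3.52 FPKM in calves and at 31.3, 30.6 and 31.4 FPKM in bulls. Coding sequences of clustered histone genes are nearly identical, and how reads shared between copies or between overlapping rows were divided is not given in the sources used here. Single values of such rows are therefore uncertain.

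Genes that act on histones were compared by lists. Of 16 genes of histone mRNA transcription and 3' end processing, 8 were called higher in bulls and none lower with all libraries, and 9 were higher and none lower without calf 3. Over all genes tested, 35.7% were called higher and 9.61% lower with all libraries, and 37.9% and 13.6% without calf 3, which is the background of each list here. The median difference was 0.94 on the log2(FPKM + 1) scale, beside 0.43 over all genes. The largest differences were those of SYMPK, a scaffold of the cleavage complex (2.29, and 2.41 without calf 3), and ERI1, an exonuclease that trims the histone mRNA end (1.89, and 1.48 without calf 3). SLBP, which binds the stem-loop of replication-dependent histone mRNA, was measured at 13.5, 15.8 and 10.5 FPKM in calves and 32.5, 33.1 and 28.5 FPKM in bulls and rose by 1.19 (limma adjusted p = 0.00237) and by 1.05 without calf 3, although the H2A and H2B rows were not called higher in either fit.

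Of 28 tested histone chaperones and loaders, 12 were called higher and 1 lower with all libraries, and 13 higher and 3 lower without calf 3, with a median difference of 0.61, the share called higher being close to the background. ASF1B, a chaperone of H3 and H4, rose by 3.26 and IPO4, an importer of the same pair, by 2.92, and without calf 3 by 2.76 and 2.40. ATRX, which loads H3.3 with DAXX, fell by 2.06, and differed by -1.89 without calf 3, while DAXX rose by 1.69 and by 1.42 without calf 3. Of 20 S phase genes, 6 were called higher with all libraries and 4 without calf 3, none lower, a smaller share than the background in both fits, and the median difference was 0.74 and 0.27. MCM4, a subunit of the replicative helicase, rose by 2.04, and TYMS, thymidylate synthase, by 1.90, and without calf 3 by 1.33 and 1.28. Of 15 tested genes of the exchange of histones for protamines, 12 were called higher and none lower in both fits, with a median of 3.94. A gene of this list below 1 FPKM in every calf was tested only if all 3 bulls reached 1 FPKM. Such a gene had to be higher in bulls to be tested, so that this count is a description. PRM1, the main protamine of bovine sperm, rose by 12.94 and TNP1, a transition protein, by 10.61, and without calf 3 by 13.07 and 10.54.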

How the data were processed

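RNA-seq of testis from 3 calves and 3 bulls, 1 library per animal, was analysed from tables of genes and transcripts. The authors deposited these values as FPKM per library. According to their methods, reads of ribosomal RNA were removed with Bowtie2, the rest were mapped with TopHat2 and transcripts were assembled with StringTie. The methods name Cuffdiff and Ballgown for circRNAs, and whether these tools made the FPKM values of the gene and transcript tables is not given in the sources used here. No counts were used, so that the number of reads behind each value is unknown. The paper gives the read total of each library. The methods name the UMD assembly, but 99.7% of 16236 symbols of the table overlapped their RefSeq position on a later assembly, ARS-UCD; positions are printed as deposited, and RefSeq names were matched by position. The libraries were prepared with strand information, but whether the FPKM values used it is not stated.

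FPKM values were transformed as log2(FPKM + 1), and genes with at least 1 FPKM in at least 3 of 6 libraries were fitted with limma 3.58.1 in R 4.3.3 (empirical Bayes with a trend, two-sided), with group as the only term and no batch given in the labels. Benjamini-Hochberg adjustment covered all 18115 genes, or 23212 transcripts, tested. Differences are bull minus calf on the log2(FPKM + 1) scale, which understates the change of low genes. On simulated data with 200 genes changed by 2 on the log2 scale, 60.5% were recovered among 16731 genes tested with 3 false calls, and 47.5% among 20730 transcripts with 6 false calls. The changed rows were drawn from the more abundant rows only. The noise was independent between libraries, with no library set apart as calf 3 was. Recovery of low rows was therefore not measured.

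Every variant histone with a row was named, with the members of largest called difference and of highest level. In each list, the 2 genes of largest called difference in each direction were named. Other members, SLBP and DAXX were named after their values were seen. No row carried the symbol of H2AFX, H1F0, H1FNT, HIST1H2BA, HIST1H2AA, H2AP, H2BFWT or H2BFM, or an H2AFB or H2AL symbol. These variants were therefore not analysed here. The members and lists were chosen with earlier results of these data known. Alternatives were other filters, a pseudocount of 0.1, quantile and median scaling, no trend, a replicate block, adjusted p alone and leaving out each library. The labels give no pairing of calves and bulls by number. Deviations of libraries of the same number correlated at 0.0277, 0.0246 and 0.0341 across genes. Those of libraries of different numbers correlated at -0.0487 to 0.0221. These small values cannot decide whether libraries of the same number shared a processing step. Figures were drawn with matplotlib 3.10.9.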

Additional observations from a re-analysis of the deposited data

How the results depend on the processing

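Of the single changes tried, leaving out calf 3 moved the counts of genes and transcripts called lower most. With each library left out in turn, the histone genes called higher in bulls numbered 5 to 7 against 6, and those called lower 3 to 13 against 5: 13 without calf 3 and 3 without calf 1, calf 2 or any bull. Transcripts called higher numbered 6 to 11 against 11, with 7, 7 and 6 without bulls 1, 2 and 3, and those called lower 3 to 14 against 5, with 14 without calf 3 and 3 when any other library was left out. The ratio of the summed histone FPKM of bulls to calves was 1.38, with a range of 1.01 to 1.82 over these fits (1.01 without calf 3), and 1.94 as a share of the summed FPKM of rows with a symbol. Quantile normalization gave 3 histone genes higher and 8 lower, and 6 transcripts higher and 8 lower. It also moved the median of all genes from 0.43 to -0.26 and the split of all genes from 35.7% higher and 9.61% lower to 21.1% and 25.1%, and median scaling moved that median to 0.28. Without a filter on low values, 7 transcripts were higher and 3 lower. After the data were seen, calf 3 was also left out with median scaling (7 genes higher, 14 lower) and with quantile normalization (4 higher, 18 lower).

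Directions turned for genes that were not called with all libraries. Under quantile normalization CENPA was at -0.79, the H2B row ENSBTAG00000052382 at 0.28 and HIST2H2BF at -0.12. With each library left out in turn, the range was -2.61 to 0.24 for the H4 row ENSBTAG00000040277, -0.59 to 0.93 for the H4 row ENSBTAG00000053034, -0.094 to 0.60 for CENPA, -1.05 to 0.44 for HIST1H2AC, -1.34 to 0.26 for the HIST1H2AG row ENSBTAG00000053792, -0.70 to 0.38 for the H2B row ENSBTAG00000052382, -1.45 to 0.075 for HIST2H2BE, -1.0 to 1.03 for HIST2H2BF and -1.20 to 0.30 for HIST3H2BB. In each of these genes the lowest value was that without calf 3. Without calf 3 the sign also turned, with no call, in HIST2H2AC (-0.63), HIST1H2BD (-0.12), the H2B row ENSBTAG00000049598 (-0.50), the HIST1H2BB row ENSBTAG00000048567 (-0.29), the HIST1H2AG row ENSBTAG00000051969 (-0.42) and the HIST1H1E row ENSBTAG00000047206 (-0.14). The cause was not tested.

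Fitting the replicate number as a block gave 5 histone genes higher and 5 lower, although the labels give no pairing by number. Over 32 histone genes and 13 alternatives each, 366 of 416 values kept their direction and side of the threshold, and 11 genes did so under every alternative. The calls of H3F3C (both rows), H1FOO, H1FX, HIST2H2AB and the H2B row ENSBTAG00000052713 were kept in all of these. H2AFJ lost its call without calf 3, and its adjusted p ranged from 0.00375 to 0.551 over the alternatives. The depth is unknown, and 3 animals a group limit the precision.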
